A study of Mus musculus with 146 samples.

Results

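The mRNA bound to tagged ribosomes of microglia was compared between mice at the initiation of EAE and non-immunized mice. EAE, experimental autoimmune encephalomyelitis, is an immune attack on myelin that models multiple sclerosis, here in its relapsing-remitting form. The comparison used 10 anti-HA libraries, 4 of the stage labelled initiation and 6 labelled non-immunized, of 146 samples in the series, and all 716 genes that the authors listed for the disease course. The libraries were taken by their labels, not by any measured value. All these mice were F1 of C57BL/6 * SJL with the genotype Cx3cr1-CreER:RPL22-HA, and all were gavaged at 4 to 6 weeks of age with 4 doses of 5 mg tamoxifen on alternate days. The tag is therefore carried by cells that expressed Cx3cr1 when tamoxifen was given, in the brain mostly microglia but also macrophages of the brain's borders. Initiation mice were thus EAE mice of that genotype and tamoxifen treatment, and non-immunized mice shared both without immunization, although the treatment label of the library names EAE for both groups. Brain homogenate was incubated with anti-HA antibody (Sigma H9658). Libraries of a mouse IgG1 precipitate and of the untreated homogenate (input) served as background, with 4 of each at initiation and 6 of each from non-immunized mice. The labels do not say whether replicates are separate animals, so p-values measure the spread between libraries.

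Microglia are the resident macrophages of the brain. In healthy tissue they express a typical set of surface receptors, among them the purinergic receptor P2ry12. Interferons act on them through receptor-bound JAK kinases and STAT transcription factors, which turn on GTPases, antiviral effectors and the genes of antigen presentation. In inflamed tissue microglia also divide, and they release chemokines that attract monocytes and T cells. In bulk precipitates, fewer cells of a type and less RNA per cell cannot be told apart.

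Values, as the word is used below, are read counts divided by the size factor of their library. The recovered reads over the 716 genes numbered 184588 to 407627 per library at initiation and 152704 to 386600 in non-immunized mice. Of 60 homeostatic microglial genes, 21 are in the table, and 20 of these were higher in anti-HA than in IgG libraries at initiation. Of all 716 genes 685 (95.7%) differed there, 683 of them (95.4%) higher in anti-HA libraries. No marker of T, B or NK cells is in the table. At initiation, library 2 stood apart. Its correlation with the other 3 initiation libraries, on log2(value + 1) over the 716 genes, was 0.827 to 0.869, against 0.921 to 0.938 among those 3. Its correlation with the mean of the 6 anti-HA libraries of the following stage, labelled max and of the same genotype, was 0.962, against 0.854 to 0.900 for the other 3 initiation libraries. The 6 max libraries correlated with the mean of the other max libraries at 0.953 to 0.980. Non-immunized library 5 was lower than the rest of its group, by a median of 0.639 on the log2 scale. Counts over all genes and over the lists are therefore also given without both libraries. Both were kept in the group that their labels give, and whether the label of initiation library 2 is right was not tested.

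Of the 716 genes, 649 (90.6%) differed between initiation and non-immunized libraries by limma with a Benjamini-Hochberg adjusted p below 0.05, which is how called is used below. At initiation 533 (74.4%) were higher and 116 (16.2%) were lower. The values of the groups did not overlap for 423 genes that were higher at initiation (59.1%) and for 56 that were lower (7.82%). The authors picked these genes using the same libraries and those of other stages, so the counts are not independent evidence that the stages differ. The median log2 fold change over all genes was 1.24. Quantile normalization, which gives each library the same distribution of values, shifted that median by -1.17 and left 199 genes called higher and 173 called lower. Calls of rises smaller than this shift depend on the scaling. Most of these chosen genes rose, and quantile normalization over them alone also takes away a rise that they share. It therefore cannot tell such a rise from scaling. It moves falling genes further down, as in the homeostatic list (median -1.36 before and -2.38 after). Lower calls that remain after it are thus no check of a fall. Without initiation library 2 and non-immunized library 5, 474 genes were called higher and 109 lower.

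The genes that interferons induce are described first. The list counts that follow stand beside 74.4% of all 716 genes called higher and 16.2% called lower. The promoters of a GTPase gene, an antiviral gene and a signalling gene are printed because these groups rose together, as examples with a match and not as typical of their lists. They are 300-base windows from RefSeq on GRCm38.p6, the build that mm10 names, from 250 bases before the transcription start to 50 after it. Capitals mark matches, on either strand, to GAAA, any 2 bases and again GAAA, the core of the interferon-stimulated response element (ISRE) bound by IRF and STAT complexes, or to TTCNNNGAA, the gamma-activated sequence (GAS) bound by STAT dimers. The windows are chr3:142620413-142620712 on the plus strand for Gbp2, chr4:156200769-156201068 on the minus strand for Isg15 and chr11:117969317-117969616 on the minus strand for Socs3.
Gbp2: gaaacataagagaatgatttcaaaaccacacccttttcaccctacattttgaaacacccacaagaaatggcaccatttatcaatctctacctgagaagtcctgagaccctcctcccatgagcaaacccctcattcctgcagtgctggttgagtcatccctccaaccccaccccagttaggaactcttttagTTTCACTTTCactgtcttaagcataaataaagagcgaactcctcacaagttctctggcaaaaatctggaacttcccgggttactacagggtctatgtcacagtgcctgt
Isg15: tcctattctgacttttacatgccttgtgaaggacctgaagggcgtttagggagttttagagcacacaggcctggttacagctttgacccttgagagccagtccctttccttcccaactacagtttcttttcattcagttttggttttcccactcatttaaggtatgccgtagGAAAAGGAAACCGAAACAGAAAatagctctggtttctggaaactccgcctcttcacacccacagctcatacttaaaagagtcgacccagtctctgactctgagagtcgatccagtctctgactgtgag
Socs3: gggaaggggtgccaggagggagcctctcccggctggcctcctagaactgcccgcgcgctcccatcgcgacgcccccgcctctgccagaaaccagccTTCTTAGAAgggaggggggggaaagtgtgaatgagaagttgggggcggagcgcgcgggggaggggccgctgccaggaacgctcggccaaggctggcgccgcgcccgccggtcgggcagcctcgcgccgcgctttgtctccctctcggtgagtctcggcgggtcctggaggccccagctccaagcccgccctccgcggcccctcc
The match in Gbp2 starts 59 bases before the transcription start. Isg15 has 3 matches to the ISRE core that overlap each other, starting at positions -78, -72 and -66. Socs3 has no ISRE match in this window and 1 GAS match, at -154. An ISRE core was present in a promoter of 5 of the 5 interferon-inducible GTPase genes of the table that have an entry, of 8 of 15 antiviral genes, of 4 of 15 class I genes, of 2 of 10 genes of STAT, IRF and SOCS signalling and of 0 of 5 sensing genes, against 3.99% of the 27025 genes with an entry. The GAS letters were present in 2 of the 5 GTPase genes, 7 of the 15 antiviral genes and 2 of the 10 signalling genes, against 9.55% of all genes. A 10-base consensus of NF-kappa B, another transcription factor, was present in 2 of the 5 GTPase and 6 of the 15 antiviral genes. It was also present in 5 of the 15 class I and 1 of the 10 signalling genes, against 9.55% of all genes. Among the genes called higher at initiation the shares were 11.3% for ISRE, 10.1% for GAS and 14.7% for NF-kappa B. Among the genes not called they were 5.45%, 7.27% and 21.8%. A match describes the sequence and shows no binding.

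All 7 measured interferon-inducible GTPases, which attack the membranes of pathogen vacuoles, were called higher at initiation, with a median log2 fold change of 4.42. Over all 716 genes, 74.4% were called higher, with a median of 1.24. After quantile normalization 6 remained called higher and none changed sign, and without library 2 of initiation 6 were called. Gbp2 had values of 365, 1723, 182 and 662 in the initiation libraries and 2.93, 7.12 and 8.54 (lowest, median, highest) in the non-immunized ones. Its log2 fold change was 6.17 ± 0.63 (SE, adjusted p = 2.16e-09). Library 2 was the highest of the 4 initiation libraries for all 7 of these genes, and in each of them the groups did not overlap. Over all genes 59.1% were higher without overlap. Gbp5 had 268, 850.4, 151 and 172 at initiation, against 7.28, 12.2 and 18.7 in non-immunized mice (log2 4.42 ± 0.69, adjusted p = 2.81e-06). Gbp3 was more even across libraries than both, with 309.7, 435, 241 and 304 at initiation and 12.1, 24.6 and 34.8 in non-immunized mice (log2 3.75 ± 0.38, adjusted p = 2.16e-09). Gbp8 had 3 reads in all 6 non-immunized libraries and 141 at initiation, a ratio of 82.6 with a counting interval of 28.3 to 401 (95%). Guanylate-binding proteins are paralogs, and how reads shared between close members were counted is not given in the sources used here.

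All 17 measured antiviral effectors were also called higher, with a median of 2.46, against 74.4% and 1.24 over all genes. After quantile normalization 12 were called higher, and Tor3a and Sp140 had the opposite sign. Isg15, a ubiquitin-like protein joined to other proteins, had values of 639, 976, 883 and 1194 at initiation, against 30.3, 74.4 and 102 in non-immunized mice (log2 3.71 ± 0.44, adjusted p = 2.08e-08). Oasl1, of the oligoadenylate synthetase family, had 56.5, 85, 40.5 and 70.2 at initiation, against 0, 2.92 and 8.54 in non-immunized mice (log2 4.10 ± 0.52, adjusted p = 7.49e-08). For both genes every initiation library lay above every non-immunized one, and library 2 was within the range of the other 3 for Isg15. The sensor Zbp1, which binds Z-form nucleic acid and can start necroptosis, had 713, 1371, 649 and 1137 at initiation, against 6.84, 17 and 33.6 in non-immunized mice. Its log2 fold change of 5.74 ± 0.52 (adjusted p = 4.04e-10) was the fifth among called genes above the level minimum. All 8 genes of nucleic acid sensing and the inflammasome were called higher (median 1.91), against 74.4% and 1.24 over all genes. After quantile normalization 4 were called higher and 1 lower, and Tlr1 changed sign. Il18bp, a secreted protein that neutralizes interleukin-18, had 84.7, 454, 72.1 and 166 at initiation, against 1.21, 5.29 and 9.67 in non-immunized mice (log2 4.72 ± 0.57, adjusted p = 2.86e-08).

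All 14 measured genes of STAT, IRF and SOCS signalling were called higher (median 2.27), against 74.4% and 1.24 over all genes. After quantile normalization 8 were called higher, with no change of sign. Irf7, a transcription factor that amplifies the response to type I interferon, had 316, 575, 430.3 and 709 at initiation, against 21.8, 30.5 and 43.5 in non-immunized mice (log2 3.94 ± 0.40, adjusted p = 2.16e-09). Irf1, a transcription factor induced by interferon-gamma, had 1283, 2432, 1352 and 1697 at initiation, against 84.9, 173 and 188 in non-immunized mice (log2 3.40 ± 0.41, adjusted p = 3.71e-08). The feedback inhibitor Socs3, induced by STAT3, had 532, 340.2, 574 and 479.9 at initiation, against 23.5, 38 and 54.2 in non-immunized mice (log2 3.65 ± 0.39, adjusted p = 3.74e-09). Socs3 was lowest in library 2, whereas Irf1 was highest there.

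**Figure D1:**
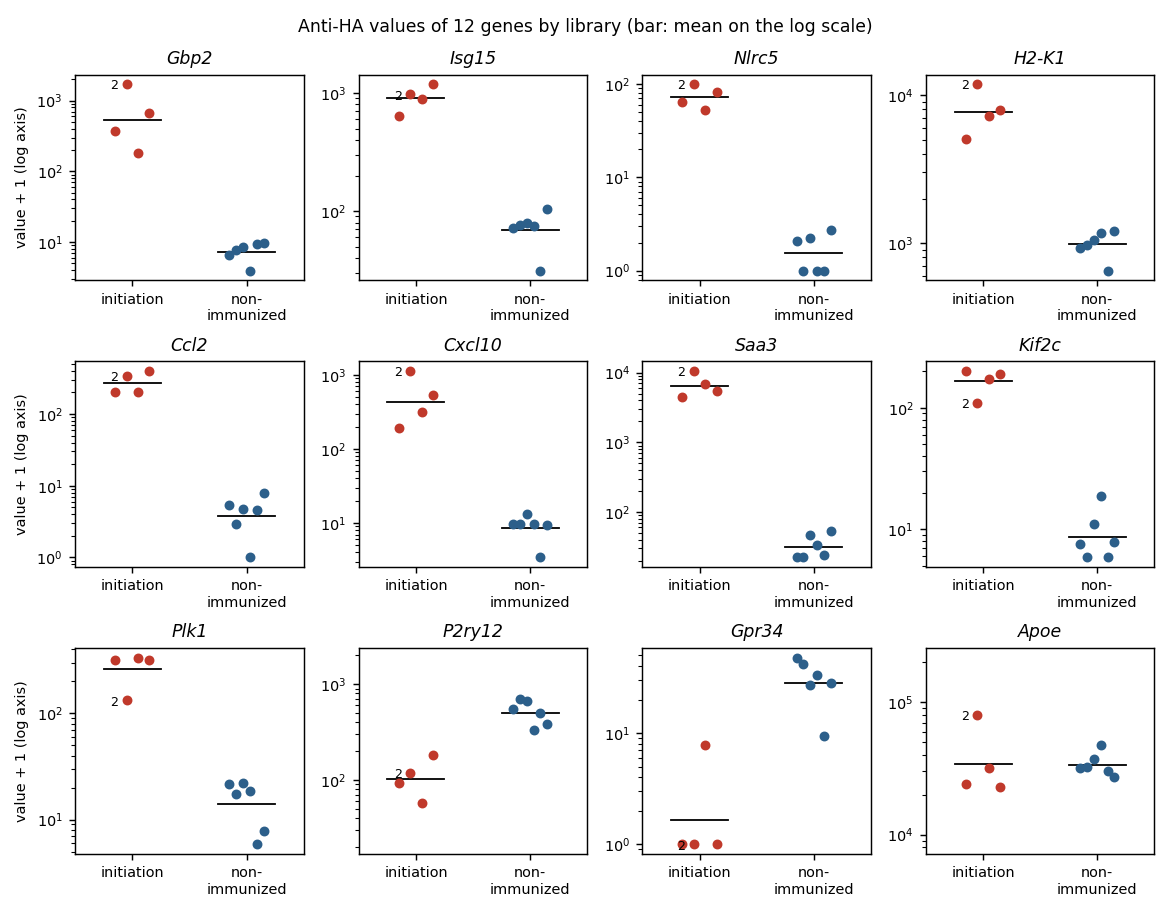
Anti-HA values of 12 genes in each library, plotted as value + 1 on a log axis, with initiation (4 libraries, red) left of non-immunized (6 libraries, blue). Bars mark the mean on the log scale and the digit 2 marks initiation library 2. The groups do not overlap for Gbp2, Isg15, Nlrc5, H2-K1, Ccl2, Cxcl10, Saa3, Kif2c, Plk1, P2ry12 and Gpr34, and they overlap for Apoe.

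The genes of antigen presentation by MHC class I, which shows peptides from inside the cell to CD8 T cells, were all called higher. They were 18 of 18 with a median of 2.02, against 74.4% and 1.24 over all genes. After quantile normalization 12 were called higher, and Erap1 and Calr had the opposite sign. Nlrc5, the transactivator of class I genes, had values of 63.3, 99.2, 51.8 and 81.9 at initiation, against 0, 0.545 and 1.71 in non-immunized mice. With 186 reads at initiation and 3 reads in all non-immunized libraries, the ratio was 109 with a counting interval of 37.3 to 529. The adjusted p of 1.9e-12 is that of limma on log2(value + 1) and does not belong to this ratio. The class I heavy chain H2-K1 had 5087, 11900, 7197 and 7911 at initiation, against 651, 1015 and 1210 in non-immunized mice (log2 2.97 ± 0.28, adjusted p = 6.69e-10). Tap1, a subunit of the transporter that brings peptides into the endoplasmic reticulum, had 939.8, 1820, 1309 and 1242 at initiation, against 60.6, 113 and 164 in non-immunized mice (log2 3.55 ± 0.39, adjusted p = 6.77e-09). In all 3 genes the groups did not overlap. B2m, the class I light chain, varied far more. Its values were 1305, 5979, 455 and 3254 at initiation, against 689.6, 783 and 1060 in non-immunized mice, and the groups overlapped. B2m was called (log2 1.15 ± 0.53, adjusted p = 0.040), and the call was lost without any 1 of initiation libraries 2 (log2 0.59) and 4 and non-immunized libraries 1, 4, 5 and 6. Without initiation library 3 the log2 fold change of B2m was 1.83.

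MHC class II, which shows peptides from outside the cell to CD4 T cells, was less uniform. Of 11 measured genes of the group, 9 were called higher, H2-Ob was called lower and H2-Oa was not called (median 2.17). H2-Oa, with a log2 fold change of 0.92, was called without initiation library 1 or 3. Without library 2 its log2 fold change was 0.26 and was not called. After quantile normalization 6 were called higher and 1 lower, and H2-Oa changed sign. Cd74, the invariant chain, had values of 4374, 43130, 2537 and 5364 at initiation, against 471, 1284 and 3090 in non-immunized mice (log2 2.50 ± 0.60, adjusted p = 0.000393). Library 2 held the highest value by far, and library 3 was below the highest non-immunized value. Without library 2 the log2 fold change of Cd74 was 1.63 and was still called. Ciita, the transactivator of class II genes, had 9.74, 68.8, 13.5 and 8.36 at initiation, against 0, 0.854 and 2.93 in non-immunized mice (log2 3.29 ± 0.57, adjusted p = 9.87e-06), and without library 2 its log2 fold change was 2.63. Ifi30, a lysosomal thiol reductase that unfolds antigens, was by contrast nearly equal in the 4 initiation libraries, with 3223, 3752, 3122 and 3324 against 400.3, 566 and 754 in non-immunized mice (log2 2.58 ± 0.33, adjusted p = 7.49e-08). H2-Ob, a chain of an inhibitor of peptide loading, had 20.4, 12.2, 24.8 and 40.1 at initiation, against 30.3, 56.5 and 75.5 in non-immunized mice (log2 -1.14 ± 0.34, adjusted p = 0.00307), with overlap of the groups. H2-Oa and H2-Ob encode the chains of that same inhibitor.

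Of 6 genes of co-stimulation and checkpoints, 3 were called higher. After quantile normalization 3 were called higher and 1 lower, and Icosl and Cd83 had the opposite sign. Cd40, the receptor through which T cells activate antigen-presenting cells, had 74.0, 350.3, 176 and 162 at initiation, against 2.43, 8.86 and 14.2 in non-immunized mice (log2 4.22 ± 0.47, adjusted p = 8.9e-09). Cd274, the gene of PD-L1, a ligand that restrains T cells, had 43.8, 68.8, 15.8 and 63.5 at initiation, against 1.94, 4.20 and 7.63 in non-immunized mice (log2 3.10 ± 0.44, adjusted p = 5.21e-07). For Cd40 and Cd274 every initiation library was above every non-immunized one.

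Chemokines had one of the highest medians of the lists, 4.17. Of 13 measured, 11 were called higher, Ccl24 was called lower and Ccl3 was not called, except without initiation library 1 or non-immunized library 4. After quantile normalization 10 were called higher and 2 lower, and Ccl3 changed sign. Ccl2, which draws monocytes through CCR2, had values of 203, 338, 200.5 and 399.6 at initiation, against 0, 3.69 and 6.84 in non-immunized mice (log2 6.19 ± 0.69, adjusted p = 7.09e-09). Cxcl10, a ligand of CXCR3 on activated T cells, had 189, 1140, 313 and 533 at initiation, against 2.43, 8.71 and 12.4 in non-immunized mice (log2 5.67 ± 0.65, adjusted p = 1.15e-08). Ccl5, which draws T cells and monocytes, had 654, 4643, 822 and 1251 at initiation, against 36.4, 59.5 and 104 in non-immunized mice (log2 4.51 ± 0.47, adjusted p = 3.19e-09). Library 2 was the highest initiation library for Cxcl10 and Ccl5 but not for Ccl2, and without it the log2 fold change of Ccl5 was 3.91. Ccl24, a ligand of CCR3, ran the other way, with 38, 68.8, 15.8 and 36.8 at initiation against 77.6, 139 and 197 in non-immunized mice (log2 -1.82 ± 0.38, adjusted p = 9.18e-05), and the groups did not overlap.

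Of 12 cytokines, growth factors and their receptors, 11 were called higher and Il6ra lower, with a median of 1.88. After quantile normalization 5 were called higher and 1 lower, and Tnfsf13b had the opposite sign. Il2rg, the common gamma chain shared by the receptors of several interleukins, had 141, 690.4, 142 and 246 at initiation, against 10.9, 15.4 and 25.6 in non-immunized mice (log2 3.82 ± 0.41, adjusted p = 4.44e-09). Csf1, a growth factor of microglia that the IgG precipitates also held, was even across libraries, with 158, 126, 119 and 139 at initiation against 33.9, 40.7 and 47.9 in non-immunized mice (log2 1.70 ± 0.20, adjusted p = 1.87e-08). Its IgG values were 54.4, 78.3, 92.8 and 90.7 at initiation, and the IgG mean there was 58.4% of the anti-HA mean. Il6ra, the interleukin-6 receptor chain, had 267, 34.4, 185 and 87.0 at initiation, against 127, 224 and 282 in non-immunized mice. Its log2 fold change of -0.93 ± 0.39 (adjusted p = 0.0271) was -0.37 and no longer called without library 2. The call was also lost without initiation library 4 or non-immunized library 2. Of 10 genes of the NF-kappa B and immediate response list, 9 were called higher, but their median of 1.20 was close to that of all genes. Quantile normalization left 2 called higher and 1 lower and reversed the sign of 6. Bcl3, a nuclear regulator of NF-kappa B, stayed well above that shift, with 165, 149.8, 146 and 160.5 at initiation and 7.28, 11.7 and 20.5 in non-immunized mice (log2 3.59 ± 0.36, adjusted p = 2.16e-09).

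The gene with the highest fold change among called genes was Saa3, an acute-phase serum amyloid A, at chr7:46711998-46715700 on the minus strand (mm10, GENCODE M21). Its values were 4476, 10640, 6828 and 5436 at initiation, against 21.3, 27.7 and 53.0 in non-immunized mice (log2 7.67 ± 0.56, adjusted p = 1.9e-12). The complement genes Cfb and C3, both of the alternative pathway, rose as well. Cfb had 207, 1855, 155 and 453 at initiation, against 2.43, 5.84 and 18.7 in non-immunized mice (log2 5.83 ± 0.64, adjusted p = 6.77e-09), and without library 2 its log2 fold change was 5.1. C3 had 130.5, 1650, 205 and 206 at initiation, against 14.9, 19.9 and 32.5 in non-immunized mice (log2 3.79 ± 0.44, adjusted p = 1.65e-08). In C3 library 2 lay far above the other 3, which alone gave a log2 fold change of 2.98. In non-immunized mice Cfb had 33 reads in anti-HA and 53 in IgG libraries, and C3 had 98 and 155. At initiation these were 1469 and 608 for Cfb, and 1163 and 572 for C3. Both fold changes thus start from read numbers not above those of IgG libraries. Of 8 complement and acute-phase genes, 7 were called higher and 1 lower, and after quantile normalization 5 were called higher and 1 lower, with a change of sign for F13a1. Other genes with some of the highest folds were Hcar2, a receptor for butyrate and ketone bodies, and Marco, a scavenger receptor for bacteria. Hcar2 had 163, 306, 122 and 199 at initiation, against 0.967, 5.66 and 18.7 in non-immunized mice (log2 4.93 ± 0.50, adjusted p = 2.16e-09). Marco had 20.4, 101, 69.8 and 38.5 at initiation and 0, 0 and 2.90 in non-immunized mice (adjusted p = 3.19e-09).

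**Figure D2:**
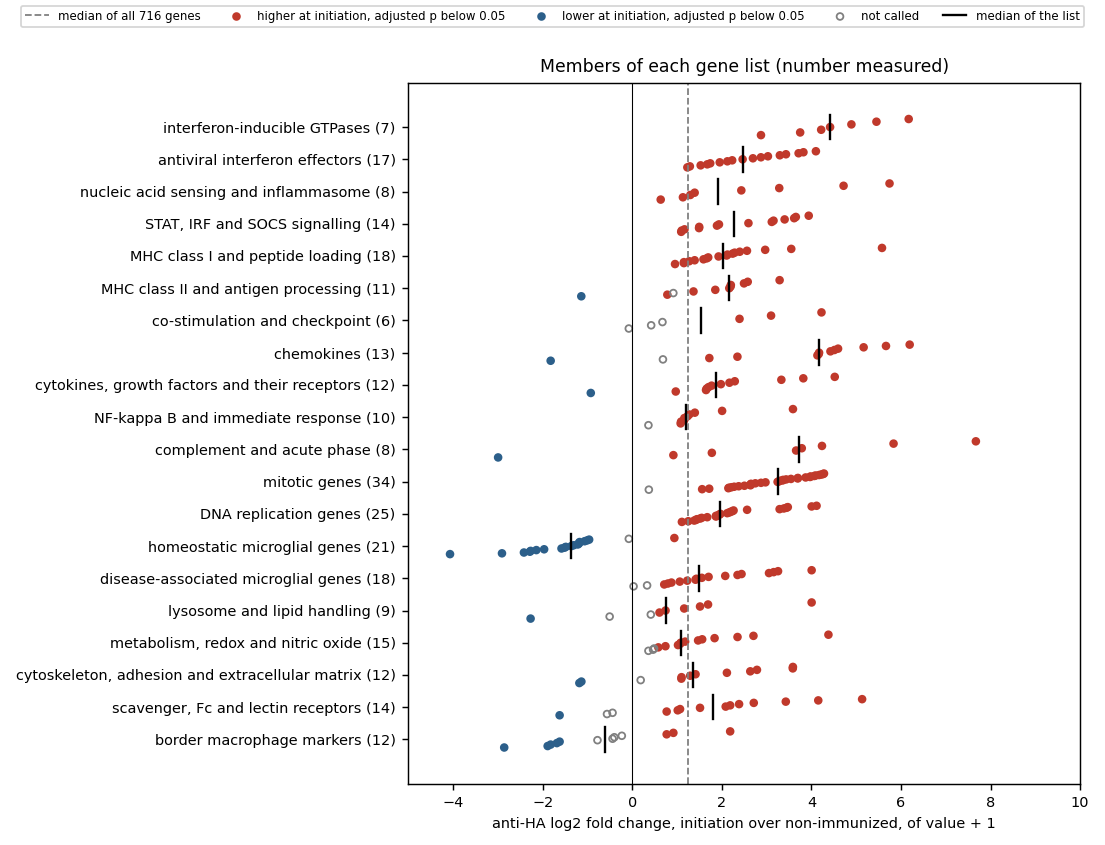
Anti-HA log2 fold change, initiation over non-immunized, of every measured member of 20 gene lists. Filled points were called (red higher, blue lower), open circles were not, black ticks are list medians and the dashed line is the median of all 716 genes, 1.24. Interferon-inducible GTPases and chemokines lie farthest to the right by median, and homeostatic microglial genes lie left of 0.

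Genes of cell division rose as a group of their own. Promoters of Plk1, a mitotic kinase, and Ccnb2, a mitotic cyclin, are printed because most mitotic genes of the table share the same short element there. They are RefSeq windows of the same kind at chr7:122159185-122159484 on the plus strand and chr9:70421505-70421804 on the minus strand (GRCm38.p6), and capitals mark TTTGAA, the cell cycle genes homology region (CHR) through which mitotic genes are held off in resting cells.
Plk1: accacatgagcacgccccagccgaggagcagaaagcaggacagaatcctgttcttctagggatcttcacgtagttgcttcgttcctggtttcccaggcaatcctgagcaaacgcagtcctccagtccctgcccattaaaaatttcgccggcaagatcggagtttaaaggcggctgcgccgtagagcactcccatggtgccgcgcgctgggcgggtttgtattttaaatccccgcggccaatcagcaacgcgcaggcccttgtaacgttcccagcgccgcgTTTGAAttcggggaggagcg
Ccnb2: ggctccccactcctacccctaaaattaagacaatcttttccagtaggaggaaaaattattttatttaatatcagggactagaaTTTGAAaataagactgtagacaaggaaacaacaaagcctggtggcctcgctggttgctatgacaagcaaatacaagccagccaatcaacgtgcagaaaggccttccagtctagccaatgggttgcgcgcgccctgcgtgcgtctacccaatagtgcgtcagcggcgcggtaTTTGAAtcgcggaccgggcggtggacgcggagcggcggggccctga
The match in Plk1 lies at position 30 after the transcription start, and Ccnb2 has matches at -167 and 4. On either strand, TTTGAA occurred in a promoter of 22 of the 27 mitotic genes with an entry (81.5%), against 5 of 23 replication genes (21.7%) and 20.2% of all genes. The E2F core TTTNNCGC occurred in 8 of 23 replication genes (34.8%) and 4 of 27 mitotic genes (14.8%), against 5.93% of all genes. Among the genes called higher at initiation, TTTGAA occurred in 20.4% and the E2F core in 10.1%.

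Of 34 measured mitotic genes, 33 were called higher, with a median log2 fold change of 3.26, against 74.4% and 1.24 over all genes. After quantile normalization 25 were called higher and 1 lower, and that gene, Ncaph, changed sign. Kif2c, a kinesin that corrects the attachment of chromosomes to the spindle, had values of 202, 109, 174 and 191 at initiation, against 4.84, 6.69 and 17.6 in non-immunized mice (log2 4.26 ± 0.48, adjusted p = 1.07e-08). Plk1 had 319, 132, 333 and 316 at initiation, against 4.85, 17 and 21.1 in non-immunized mice (log2 4.22 ± 0.86, adjusted p = 7.37e-05). Ccnb2 had 152, 54.7, 65.3 and 209 at initiation, against 1.21, 5.09 and 20.7 in non-immunized mice (log2 3.97 ± 0.76, adjusted p = 3.61e-05). Library 2 was the lowest of the initiation libraries for 31 of the 34 mitotic genes, the reverse of its place among the GTPases. The proliferation marker Mki67 spread widely, with 137, 12.2, 24.8 and 43.5 at initiation and 0, 1.09 and 3.73 in non-immunized mice (log2 4.28 ± 0.77, adjusted p = 1.77e-05, and log2 3.66 without library 1). H2afx, a histone variant phosphorylated at DNA breaks, had 1003, 316, 878 and 999.9 at initiation, against 145, 159 and 195 in non-immunized mice (log2 2.15 ± 0.33, adjusted p = 2.1e-06).

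Of the DNA replication genes all 25 measured were called higher, with a median of 1.97. In all 25 the values of the groups did not overlap. Over all 716 genes, 74.4% were called higher and 59.1% were higher without overlap. After quantile normalization 11 were called higher and none changed sign. Mcm10, which helps to start replication forks, had 32.1, 28.4, 31.5 and 50.2 at initiation, against 0, 1.48 and 2.93 in non-immunized mice (log2 4.12 ± 0.69, adjusted p = 7.1e-06). Cdc45, a subunit of the replicative helicase, had 36.0, 10.1, 33.8 and 61.9 at initiation, against 0, 2.26 and 3.87 in non-immunized mice (log2 3.47 ± 0.57, adjusted p = 5.7e-06). Nasp, a chaperone of histones, had 145, 126, 236 and 266 at initiation, against 29.9, 36.9 and 52.8 in non-immunized mice (log2 2.20 ± 0.32, adjusted p = 1.03e-06). Without initiation library 2 and non-immunized library 5, 33 mitotic and 25 replication genes were called higher.

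**Figure D3:**
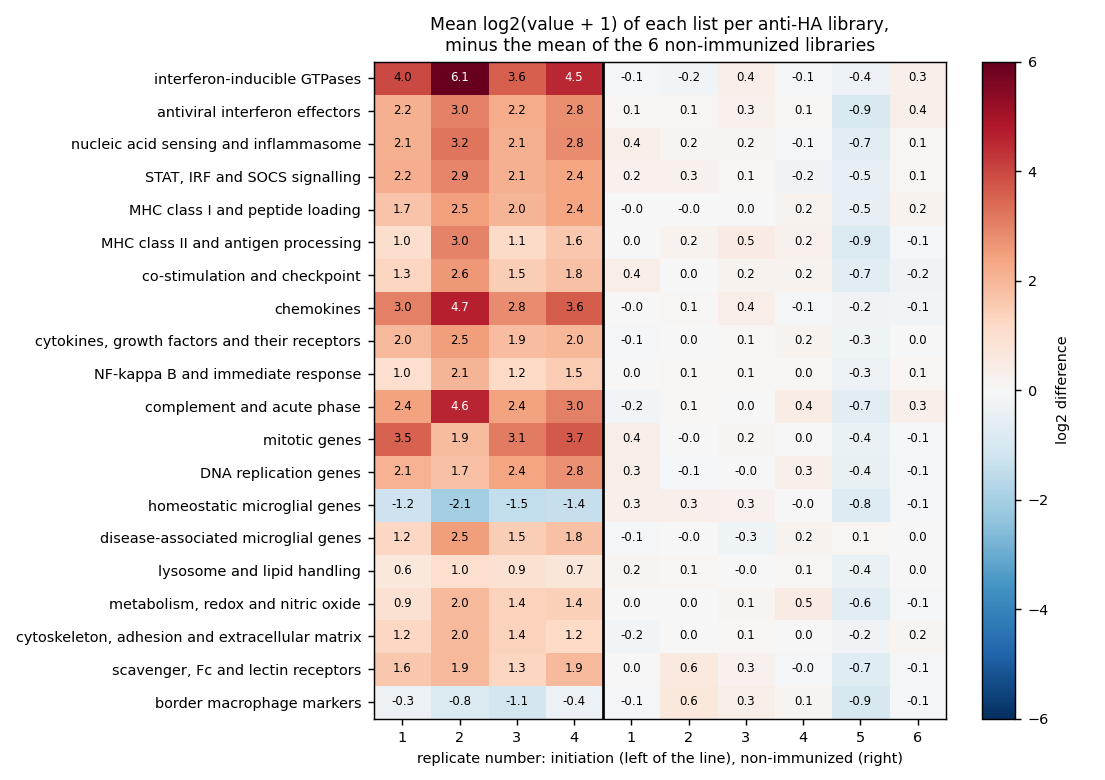
Mean log2(value + 1) of each gene list in each anti-HA library, minus the mean of the 6 non-immunized libraries, with initiation libraries 1 to 4 left of the line and non-immunized libraries 1 to 6 right of it. Red is above and blue below the non-immunized mean. Library 2 of initiation reads 6.08 for GTPases and 1.92 for mitotic genes, against 3.59 to 4.52 and 3.12 to 3.69 in the other 3.

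Homeostatic microglial genes fell. Of 21 measured, 19 were called lower and Gpr84 was called higher, with a median of -1.36. After quantile normalization 19 were called lower and none higher, with no change of sign. P2ry12, the ADP receptor that guides microglial processes to injury, had values of 90.6, 117, 56.3 and 179 at initiation, against 332, 522 and 697 in non-immunized mice (log2 -2.29 ± 0.54, adjusted p = 0.000363). Gpr34, a receptor for lysophosphatidylserine, had 0, 0, 6.76 and 0 at initiation, against 8.49, 29.8 and 46.9 in non-immunized mice. It had 3 reads at initiation and 140 in non-immunized mice. Non-immunized libraries were thus 26.5 times higher, with a counting interval of 9.08 to 129. By limma the log2 fold change of Gpr34 was -4.07 (adjusted p = 2.44e-06). For both receptors every initiation library was below every non-immunized one. Ecscr had 282, 99.2, 174 and 232 at initiation, against 428, 888 and 1110 in non-immunized mice (log2 -2.14 ± 0.32, adjusted p = 1.52e-06). Fcrls, an Fc receptor-like protein of microglia, had 1895, 148, 863 and 968 at initiation, against 1411, 3080 and 3586 in non-immunized mice (log2 -1.97 ± 0.52, adjusted p = 0.000957). In Fcrls library 1 overlapped the non-immunized range and library 2 was the lowest, and without library 2 the log2 fold change was -1.22. Gpr84, a receptor for medium-chain fatty acids that is known to rise in activated microglia, had 354, 502, 432 and 515 at initiation, against 116, 242 and 446 in non-immunized mice (log2 0.94 ± 0.34, adjusted p = 0.0115), less than the scaling shift.

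Klhdc8b and Sox4, which are outside that list, also fell. Klhdc8b had values of 84.7, 48.6, 146 and 80.3 at initiation, against 318, 396 and 603 in non-immunized mice (log2 -2.33 ± 0.24, adjusted p = 2.17e-09). Sox4, a transcription factor, had 207, 62.8, 104 and 26.8 at initiation, against 174, 396 and 549 in non-immunized mice (log2 -2.20 ± 0.38, adjusted p = 8.6e-06), with overlap of the groups through library 1. At initiation neither gene was called different between anti-HA and IgG libraries (adjusted p = 0.173 and 0.263), where Klhdc8b had IgG values of 71.8, 102, 165 and 102 and Sox4 had 119, 104, 119.5 and 76.6. The IgG mean was 123% of the anti-HA mean for Klhdc8b and 105% for Sox4. Of the dendritic cell markers the table holds 3, each of which is also in another list: Siglech among the homeostatic genes, Cd209a among border macrophage markers and Fscn1 among genes of the cytoskeleton. All 3 were called lower, and without library 2 the call of Siglech was lost. All 3 were also called lower after quantile normalization, which moves falling genes further down and so is no check of this fall. Their summed value was 966 to 2123 at initiation and 2212 to 3991 in non-immunized mice. The markers of border macrophages were mixed, with 5 of 12 called lower and 3 called higher, and a summed value of 1474 to 2373 at initiation and 1334 to 4086 in non-immunized mice. After quantile normalization 9 were called lower and 1 higher, and Cd163 and F13a1 changed sign. Cd209f, a C-type lectin, had 94.5, 60.7, 131 and 43.5 at initiation, against 144, 297 and 468 in non-immunized mice (log2 -1.89 ± 0.36, adjusted p = 3.93e-05). Siglec1, a sialic acid receptor of macrophages that interferons induce, had 63.3, 85.0, 33.8 and 66.9 at initiation, against 6.07, 12.2 and 23.2 in non-immunized mice (log2 2.19 ± 0.41, adjusted p = 2.49e-05). The mannose receptor Mrc1, a defining marker, was not called, with 32.1, 26.3, 33.8 and 87.0 at initiation and 34.0, 54.1 and 82.1 in non-immunized mice (log2 -0.44 ± 0.42, adjusted p = 0.312). Of 35 monocyte and neutrophil markers, 2 are in the table, Ly6a and Mmp9. Their summed value was 218.6 to 1871 at initiation and 91.0 to 185 in non-immunized mice. Mmp9 was called lower, with a log2 fold change of -1.49, and its groups did not overlap. The rise lay in Ly6a, an interferon-induced gene not limited to monocytes, which had 221, 1824, 174 and 657 at initiation, against 17.1, 27.5 and 38.1 in non-immunized mice (log2 4.06 ± 0.63, adjusted p = 2.42e-06), and without library 2 its log2 fold change was 3.40. In non-immunized mice Ly6a had 124 reads in anti-HA and 134 in IgG libraries, against 1598 and 295 at initiation. Of 35 markers of neurons, glia and vessels, the table holds Pdyn and Pecam1, of which 1 was called higher and 1 lower. The part of such cells in the results above was not tested.

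Of 18 measured disease-associated microglial genes, known from mouse models of neurodegeneration, 16 were called higher, with a median of 1.49, against 74.4% and 1.24 over all genes. Without library 2 of initiation 13 were called higher. After quantile normalization 8 were called higher, and Itgax, Fabp5, Ctsz, Lyz2 and Capg had the opposite sign. Lgals3, the lectin galectin-3, had 248, 1027, 552 and 528 at initiation, against 43.5, 55.5 and 115 in non-immunized mice (log2 3.05 ± 0.45, adjusted p = 1.04e-06). Ch25h, the enzyme that makes 25-hydroxycholesterol, had 87.7, 83.0, 248 and 194 at initiation, against 3.73, 5.66 and 24.3 in non-immunized mice (log2 4.00 ± 0.59, adjusted p = 1.03e-06). Apoe, the lipid carrier that defines much of this program, did not follow. Its values were 24060, 80110, 31910 and 22930 at initiation, against 27320, 32140 and 47260 in non-immunized mice (log2 0.03 ± 0.28, adjusted p = 0.919). Library 2 held more Apoe than any non-immunized library, and libraries 1 and 4 held less than any of them. Without library 2 the log2 fold change of Apoe was -0.38 and was not called. The other abundant genes without a call were Lamp1, Psap, Pld3 and Tcn2, and the first 3 encode lysosomal proteins. Lamp1 had 5218, 7070, 6630 and 3990 at initiation, against 2937, 4428 and 4794 in non-immunized mice (log2 0.41 ± 0.22, adjusted p = 0.0716), and it was called without initiation library 4 (log2 0.58). Psap was called without initiation library 1 or non-immunized library 4.

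Of 9 lysosomal and lipid genes 6 were called higher and 1 lower, and of 12 genes of the cytoskeleton and adhesion 9 were higher and 2 lower, counts near the 74.4% higher and 16.2% lower of all genes. After quantile normalization these were 1 higher and 3 lower, and 3 higher and 3 lower, with changed signs for genes that include Gla, Glb1, Lamp1 and Fam20c. Of 15 metabolic genes 12 were called higher, also near the share of all genes, with a median of 1.08, below that of all genes. After quantile normalization 6 were called higher, and signs changed for Cyba, Phgdh, Slc11a1, Ftl1, Aoah and Gpx3. Irg1 makes itaconate from a citric acid cycle intermediate. It had 20.4, 172, 18 and 31.8 at initiation, against 0, 0.484 and 8.80 in non-immunized mice (log2 4.38 ± 0.73, adjusted p = 6.03e-06), and library 2 lay far above the other 3, which alone gave a log2 fold change of 3.66. Slc2a6, a hexose transporter of lysosomes, had 162, 454, 266 and 237 at initiation, against 31.9, 37.7 and 58.7 in non-immunized mice (log2 2.71 ± 0.39, adjusted p = 6.7e-07). In non-immunized mice Slc2a6 had 169 reads in anti-HA and 479 in IgG libraries, against 650 and 333 at initiation. Its fold change thus starts from a level not above the IgG background. Of the 14 scavenger, Fc and lectin receptors, 11 were called higher and 1 lower, again near the share of all genes, and after quantile normalization 6 were higher and 3 lower, with changed signs for Cd163 and Siglecf. Fcgr4, an activating receptor for IgG, had 306, 1128, 110.4 and 624 at initiation, against 13.3, 21.2 and 35.9 in non-immunized mice (log2 4.15 ± 0.49, adjusted p = 1.81e-08), and without library 3 its log2 fold change was 4.76.

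Without initiation library 2 and non-immunized library 5, some list counts were smaller, beside 474 higher and 109 lower of all 716 genes. Of the interferon-induced lists, 6 of 7 GTPases, 16 of 17 antiviral effectors, 7 of 8 sensing genes and 14 of 14 genes of STAT, IRF and SOCS signalling were then called higher. So were 17 of 18 class I genes, 8 of 11 class II genes (and 1 lower), 3 of 6 co-stimulation genes, 11 of 13 chemokines (and 1 lower), 11 of 12 cytokine genes and 6 of 8 complement genes (and 1 lower). Of the homeostatic genes 18 of 21 were called lower, and Gpr84 was no longer called. The numbers called higher were 6 of 10 for NF-kappa B, 13 of 18 for disease-associated, 9 of 15 for metabolic and 3 of 9 for lysosomal and lipid genes, and of border macrophage markers 2 were higher and 6 lower.

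The same contrast in the inputs shows what changed in the whole homogenate. In the inputs 283 genes (39.5%) were called, of which 281 (39.2%) were higher at initiation and 2 (0.279%), Mdfi and Klhdc8b, were lower. The call of Mdfi was lost without initiation input 2 or non-immunized input 1, and that of Klhdc8b without initiation input 3 or 4 or non-immunized input 1 or 4. Without non-immunized input 1, limma called 0 genes lower, with 6 lower at an unadjusted p below 0.05, and without initiation input 3 or non-immunized input 3 it called 4. With all inputs edgeR called 2. The difference between the anti-HA change and the input change was called for 377 genes (52.7%). In 240 (33.5%) the anti-HA change was the more positive, and in 137 (19.1%) it was the more negative. Without both libraries that stood apart these were 210 and 138. Both are anti-HA libraries, and initiation input 2 was kept, whose deviations correlated with those of anti-HA library 2 at 0.6. Counts of the difference without both libraries are therefore no check of it. In the inputs 7 of 7 GTPases, 16 of 17 antiviral effectors, 13 of 18 class I and 10 of 11 class II genes were called higher. The difference was called as more positive in anti-HA libraries for 1 of 7 GTPases and 3 of 17 antiviral effectors, and without both libraries for 1 of each, with 1 antiviral effector more negative. Gbp2 in the inputs had 46.4, 274, 44.9 and 65.4 at initiation, against 1.87, 2.92 and 3.81 in non-immunized mice (log2 4.42 ± 0.58, adjusted p = 3.52e-07). Its difference of 1.76 was not called (adjusted p = 0.0855, 95% interval 0.03 to 3.48), but it was called without anti-HA library 3 (2.26) or input 2 of initiation (2.35). For 4 of 11 class II genes the anti-HA change was the more negative and for 1 it was the more positive. Without both anti-HA libraries, but with initiation input 2 kept, these were 8 and 0. H2-Aa, a class II alpha chain, had 211, 2259, 278 and 376 in initiation inputs, against 14.1, 29.2 and 45.8 in non-immunized inputs. In anti-HA libraries its values were 1966, 22870, 3289 and 5204 at initiation, against 534, 1272 and 1942 in non-immunized mice. The difference was -1.82 (adjusted p = 0.0279), and its call was lost without any 1 of anti-HA libraries 1 and 3 and input 2 of initiation and non-immunized input 1. It was -2.53 without anti-HA library 2 and -1.07 without input 2.

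Cell division and homeostatic genes differed between the fractions. The anti-HA change was the more positive for 25 of 34 mitotic and 21 of 25 replication genes, and the more negative for 19 of 21 homeostatic genes. In the inputs 12 mitotic, 7 replication and 4 homeostatic genes were called higher and 0 of each lower, against 39.2% and 0.279% of all genes. After quantile normalization the inputs had 1 mitotic gene higher and 5 lower, 0 and 13 replication genes, and 1 and 10 homeostatic genes. Plk1 in the inputs had 6.29, 7.52, 5.70 and 8.49 at initiation, against 0.808, 2.37 and 5.03 in non-immunized mice, and the difference was 3.07 ± 1.00 (adjusted p = 0.0101). P2ry12 in the inputs had 24.4, 14.2, 15.7 and 9.34 at initiation, against 14.5, 16.1 and 34.0 in non-immunized mice, which was not called (log2 -0.39 ± 0.30, adjusted p = 0.344). Its difference between the fractions was -1.90 ± 0.64 (adjusted p = 0.0121). Many input values of these genes are near the pseudocount of 1, which makes the input change look smaller. With a pseudocount of 0.1 the difference was called for 13 of the 34 mitotic and 18 of the 21 homeostatic genes, and with edgeR on the recovered reads for 15 and 17. Mcm10 was called under both, with a difference of 4.26 ± 0.84 at the pseudocount of 1 (adjusted p = 0.000104), and Kif2c under neither.

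Some of the most negative differences were in genes that rose in the inputs. Lyz2, a lysozyme of macrophages and neutrophils, had 205, 3000, 665 and 422 in initiation inputs, against 29.9, 50.3 and 67.0 in non-immunized inputs (log2 3.80 ± 0.62, adjusted p = 7.2e-06). In anti-HA libraries Lyz2 had 2966, 6275, 3771 and 3608 at initiation, against 1728, 2546 and 2870 in non-immunized mice (log2 0.71 ± 0.29, adjusted p = 0.0218), and quantile normalization reverses that sign. The call was lost without initiation library 2 (log2 0.50) or non-immunized library 3 (log2 0.61). The difference was -3.09 ± 0.69 (adjusted p = 0.000565), or -2.35 without initiation input 2. Lsp1, an actin-binding protein of leukocytes, rose in inputs to 49.5, 154, 59.8 and 60.3 at initiation, against 15.1, 20.1 and 24.2 in non-immunized mice. In anti-HA libraries it fell to 278, 316, 264 and 110.4 at initiation, against 273, 608 and 753 in non-immunized mice, and the difference was -3.12 ± 0.41 (adjusted p = 8.42e-08). Slc2a6 is an example of the other kind, with 51.1, 66.8, 45.6 and 40.8 in initiation inputs, against 42.7, 43.7 and 77.5 in non-immunized inputs. Its difference was 2.68 ± 0.46 (adjusted p = 1.35e-05). In non-immunized mice Slc2a6 had fewer reads in anti-HA (169) than in IgG libraries (479).

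**Figure D4:**
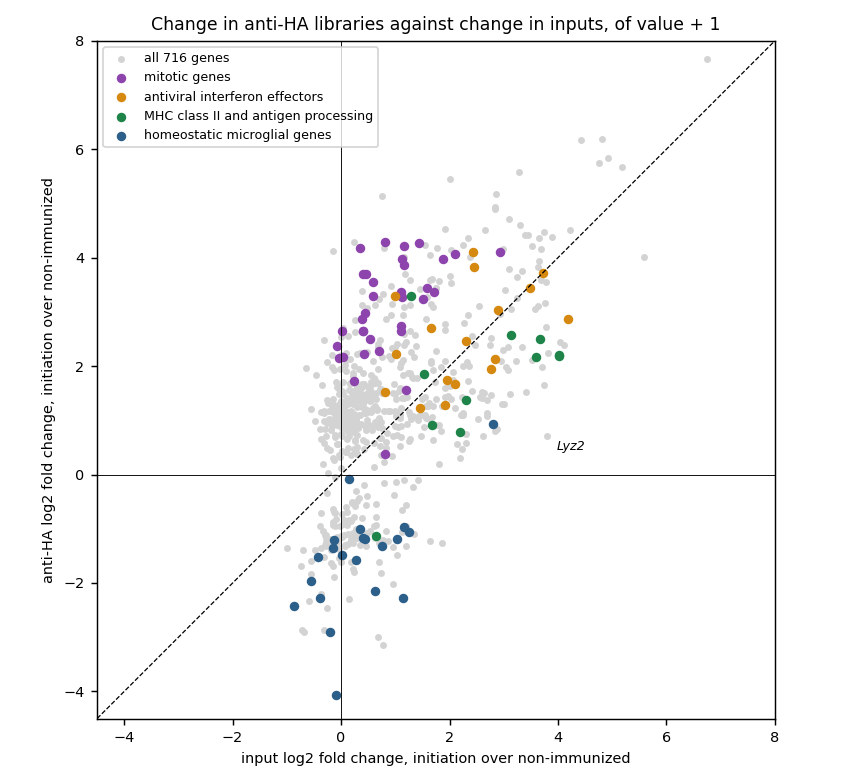
Anti-HA log2 fold change (vertical) against input log2 fold change (horizontal), both initiation over non-immunized, for 716 genes, with 4 gene lists coloured and equal change on the dashed line. Most mitotic genes lie above the line and homeostatic genes below it, while antiviral effectors lie on both sides of it.

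In the IgG precipitates of initiation the mean value was a median of 14% of the anti-HA mean over the 716 genes, on size-factor scaled values that do not give amounts of RNA. For 43 genes it was 50% or more. The medians were 10.4% for GTPases, 5.35% for mitotic and 5.27% for homeostatic genes, and 25.1% for complement and acute-phase genes. Rpl39, which encodes a ribosomal protein, was among the 2 genes (0.279%) called lower in anti-HA than in IgG libraries. Its values at initiation were 18.5, 6.07, 18 and 8.36 in anti-HA libraries, against 183, 185, 83.0 and 131 in IgG libraries. After subtraction of the mean IgG value of the stage, 495 genes were called higher and 109 lower between initiation and non-immunized anti-HA libraries. The shares above are those of initiation. In non-immunized mice some genes that rose had no more reads in anti-HA than in IgG libraries. Beside Cfb, C3, Ly6a and Slc2a6, these include Gbp8 (3 and 7), Nlrc5 (3 and 5) and Cdc45 (11 and 26).

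Initiation was compared with max as the following stage. With all libraries 69 genes (9.64%) were called, 17 (2.37%) of them higher at initiation than at max and 52 (7.26%) lower. These counts rest on library 2 of initiation, and without it 90 were called higher and 101 lower. The other initiation libraries moved them the other way, to 3 and 20 without library 1, 6 and 32 without library 3, and 2 and 22 without library 4. Without max library 1 they were 4 and 30, and without max library 6 they were 8 and 38. With all libraries 4 of 34 mitotic genes were called higher, with a median log2 fold change of 1.47, and without library 2 the number was 24. H2afx had 1003, 316, 878 and 999.9 at initiation, against 183, 280.2 and 372 at max (log2 1.41 ± 0.33, adjusted p = 0.00665). Library 2 lay within the max range for H2afx and the other 3 lay above it. Mcm10 had 32.1, 28.4, 31.5 and 50.2 at initiation, against 0, 9.06 and 14.5 at max (log2 2.43 ± 0.69, adjusted p = 0.0305), and its call was lost without any 1 of initiation libraries 1, 3 and 4 and max libraries 1 and 6. Fcrls was still higher at initiation than at max, where it had 80.7, 269 and 651 (log2 1.62 ± 0.52, adjusted p = 0.0435), with a call lost without any 1 of initiation libraries 1, 3 and 4 and max libraries 1, 2 and 4, and a log2 fold change of 2.37 without library 2.

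Some class II, disease-associated and complement genes were called lower at initiation than at max. With all libraries these were 4 of 11 class II, 6 of 18 disease-associated and 2 of 8 complement genes, and without library 2 they were 6, 11 and 4. Apoe had 71440, 106600 and 124000 at max (log2 -1.53 ± 0.28, adjusted p = 0.000905). Apoc1, a neighbour of Apoe that encodes another apolipoprotein, had 71.1, 948, 119 and 76.9 at initiation, against 783, 1306 and 1709 at max (log2 -2.96 ± 0.57, adjusted p = 0.00147). C3 had 1343, 1871 and 2348 at max (log2 -2.58 ± 0.44, adjusted p = 0.00057), and Ccl5 had 3810, 5793 and 9217 (log2 -2.13 ± 0.47, adjusted p = 0.00453). For Apoe, Apoc1, C3 and Ccl5 the value of library 2 was in the max range and the other 3 initiation values were below it. H2-Aa had 12780, 26740 and 33800 at max (log2 -2.13 ± 0.51, adjusted p = 0.00717), a call lost without initiation library 1 (adjusted p = 0.089). Without library 2 the log2 fold changes were -3.82 for Apoc1, -3.38 for C3, -2.73 for Ccl5 and -2.83 for H2-Aa. Between initiation and max limma called 0 of the 7 GTPases, with 0 at an unadjusted p below 0.05, and edgeR called 0. Without library 2 their median log2 fold change was -0.54, with 0 called and 2 at an unadjusted p below 0.05. Gbp2 had values of 135, 626 and 936 (lowest, median, highest) at max (log2 0.03 ± 0.63, adjusted p = 0.976).

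**Figure D5:**
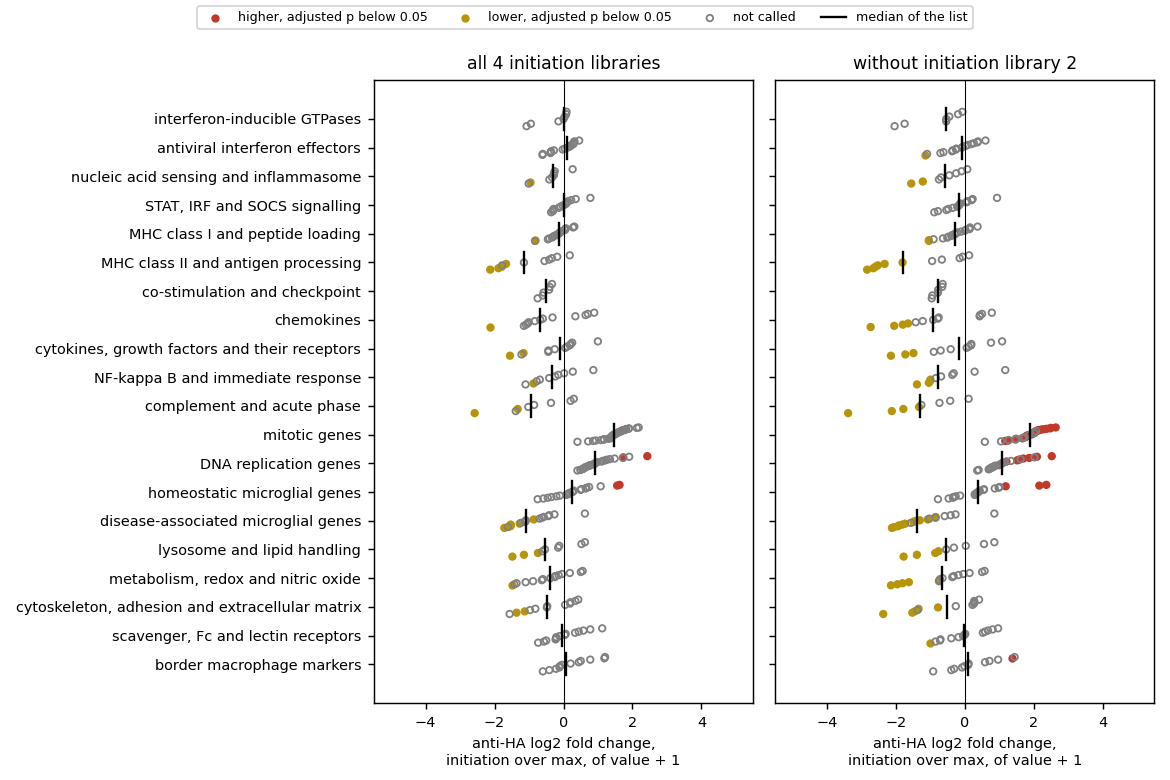
Anti-HA log2 fold change, initiation over max, of the members of each gene list, with all 4 initiation libraries (left) and without library 2 (right). Filled points were called (red higher at initiation, gold lower) and ticks are list medians. The mitotic median lies at 1.47 with all libraries and at 1.90 without library 2, and that of class II genes at -1.15 and -1.80.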

How the data were processed

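Read counts per gene were taken as the authors deposited them, as a normalized signal: counts divided by a size factor of each library, with mm10 named in the submitters' processing notes. For the aligner, the counting program and its use of strand, nothing was found: not given in the sources used here. The deposited table holds the 716 genes that the authors chose, and 56 further columns, which include their own comparisons, were not used. Whole reads were recovered for 100% of values (tolerance 0.01 of a read, plus 1e-07 of the value), which gave the depth over these genes.

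The 33 anti-HA libraries of 6 stages were fitted together with limma 3.58.1 (R 4.3.3) on log2(value + 1), with Benjamini-Hochberg adjustment over 716 genes and calls at an adjusted p below 0.05. Fold changes are on this scale and understate changes of low genes. Inputs had their own fit, and the difference of the changes was fitted over anti-HA libraries and inputs together. The IgG comparison used anti-HA and IgG libraries. The fits were tested on simulated data. The simulation gave all genes the same dispersion and held no library that stood apart or was shifted, so it does not cover these features of the data. Alternatives were edgeR 4.0.16 on the recovered reads, pseudocounts of 0.1 and 10, a mean of at least 50, quantile normalization, library weights, only the libraries compared, a replicate block, IgG subtraction and leaving out each library. Leaving out both libraries that stood apart together was chosen after seeing the data. Members and lists were chosen with earlier results of these data known.

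Deviations of same-numbered anti-HA and IgG libraries of initiation correlated at 0.24 to 0.55, and those of anti-HA libraries of initiation and max at -0.34 to 0.43. Libraries of different numbers were not correlated for reference, so whether the numbers pair libraries is not settled. In the IgG comparison the block changed no count by more than 1. Genes were named by rule: the extremes of fold change above the table's median level, the smallest p of each list, the most abundant uncalled genes, and the extremes of the other comparisons and of the spread at initiation. Named outside that rule, after their values were seen, were Gpr84, H2-Oa, H2-Ob, Il6ra, Ly6a, Mcm10, Mdfi, Mki67, Mmp9, Mrc1, Ncaph, Pdyn, Pecam1, Rpl39 and the genes that changed sign. Some genes of the table are not reported here. Counting intervals are exact at 95% and cover counting error only. Figures were drawn with matplotlib 3.10.9 and tables made with pandas 2.3.3 in Python 3.11.15.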

Additional observations from a re-analysis of the deposited data

Results flagged for a closer look

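Values that stood far from the rest of their own group were looked for in 72 named genes and both anti-HA groups, 144 sets of values in all, and 21 were found. Chance flags about 1 in 20 groups. Initiation library 2 held 11 of them. It was far above the other 3 initiation libraries for Apoc1 (947.6), Apoe (80110), C3 (1650), Ccl5 (4643), Cd74 (43130), Ciita (68.84), Gbp5 (850.4), H2-Aa (22870), H2-Oa (1330) and Irg1 (172.1), and far below them for Plk1 (131.6). Initiation library 3 was the one with reads of Gpr34 (6.758), and initiation library 4 was the highest for Mrc1 (86.95).

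Among non-immunized libraries, library 5 was far below the rest for Lamp1 (2937), Ncaph (37.6) and Tcn2 (780.0) and far above them for Apoc1 (165.0). Library 3 was the highest for Cfb (18.67) and Hcar2 (18.67), and library 4 for Irg1 (8.803) and Slc2a6 (58.69).

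The change at initiation relative to non-immunized mice differed between anti-HA libraries and inputs by a test of the difference itself, with 240 genes more positive and 137 more negative in anti-HA libraries.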

How the results depend on the processing

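Quantile normalization moved the counts of the anti-HA comparison most among the settings tried. It called 199 genes higher at initiation in anti-HA libraries (533 without it), 131 higher and 207 lower in inputs, 150 more positive in anti-HA libraries than in inputs, 194 higher and 211 lower in anti-HA than in IgG libraries, and 78 higher and 95 lower at initiation than at max. It also turned the sign of H2-Oa (-0.095), Ccl3 (-0.98), Ncaph (-0.74), Lamp1 (-0.633), Psap (-0.15) and Lyz2 (-0.566). With only genes of a mean of 50 or more, the counts were 60 higher and 1 lower in inputs, 124 for the difference between the fractions, and 452 higher and 1 lower against IgG, with fewer genes tested. The comparison with max moved under most settings. It called 9 genes higher with a pseudocount of 0.1 and 65 with 10, 112 higher and 114 lower with library weights, 11 and 16 with only the libraries compared, 6 and 33 after IgG subtraction, and 92 and 105 without both libraries that stood apart. With only the libraries compared, limma called 0 genes lower in inputs, with 2 at an unadjusted p below 0.05 and 2 called by edgeR over all inputs. Apoe at initiation was -0.222 with library weights, -0.033 after IgG subtraction and -0.41 without both libraries. Pld3 was 0.108 by edgeR. Gbp2 against max was -0.447 with library weights and -0.536 without both libraries. The cause was not tested.

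Leaving out 1 library at a time gave 494 to 531 genes higher and 99 to 122 lower at initiation in anti-HA libraries, 208 to 286 and 0 to 4 in inputs, 194 to 246 and 113 to 150 for the difference between the fractions, 668 to 681 and 2 to 4 against IgG, and 2 to 90 and 20 to 101 against max. Apoe ranged over -0.377 to 0.224, Pld3 over -0.416 to 0.229 and Gbp2 against max over -0.536 to 0.541. With the replicate number as a block, 527 genes were higher and 121 lower at initiation in anti-HA libraries, 286 and 6 in inputs, 285 and 154 for the difference, 684 and 2 against IgG, and 24 and 45 against max, where Gbp2 was -0.051. Same-numbered libraries correlated at -0.22 to 0.21 between initiation and non-immunized mice. Libraries of different numbers were not correlated, so these values do not settle whether numbers pair libraries. Anti-HA libraries and inputs of the same number correlated at 0.15 to 0.60 at initiation and at 0.01 to 0.23 in non-immunized mice, not above 0.1 in every pair. With the block, the difference between these fractions was the more positive for 3 GTPases, 4 antiviral effectors and 30 mitotic genes, and the more negative for 2 antiviral effectors and 7 class II genes. Of the genes named by fold change, 3 of 60 called in the anti-HA comparison lost the call without 1 library. Depth limits genes with few reads, such as Gpr34 and the mitotic genes in inputs.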
